A study of Mus musculus with 13 samples.

Results

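Transcripts of 10 Wnt ligand genes, Wnt2b, Wnt3a, Wnt6, Wnt7a, Wnt7b, Wnt8a, Wnt9a, Wnt10a, Wnt10b and Wnt16, were counted in mouse liver sections before and during regrowth after partial hepatectomy. These are 10 of the 100 genes of an in situ panel and 10 of its 19 Wnt ligand genes; the other 9 are Wnt1, Wnt2, Wnt3, Wnt4, Wnt5a, Wnt5b, Wnt8b, Wnt9b and Wnt11. Members were taken by symbol from the count tables of 13 sections, a missing row counting as 0, and from the transcript position lists of 12 of these sections. All 10 had transcripts in cells of every one of the 13 sections, so that none was at 0. Over all sections the members held 43233 of 55744933 counts in 131221 cells, and Wnt10a alone held 32789 of them (75.8%). The group carries the name of scarce ligands, which the counts go against for Wnt10a: its total ranks 43 from the lowest of the 100 genes and it was found in 24364 cells.

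The livers were those of male C57BL/6 mice, given as 2 months old and as having lost 2/3 of the liver, with no other genotype or agent named. Frozen sections were measured by Molecular Cartography, a Resolve Biosciences assay in which single transcripts of a fixed panel are decoded under the microscope over repeated rounds of fluorescent probes. There were 2 sections each from 0 h, 24 h, 48 h and 72 h after surgery, 3 from 14 d, and 1 each from 3 mo and from 6 mo, and the 0 h sections served as the reference throughout. Slide 1 held section 1 of both 0 h and 72 h, everything from 24 h and 48 h and the 3 mo section, slide 2 held section 2 of 0 h and of 72 h and that of 6 mo, and slide 3 held the 14 d sections, so at 14 d slide and time cannot be told apart. If the stated age was that at surgery, the 3 mo and 6 mo animals were also older, and age cannot be told apart from time there. Both 24 h sections carried no replicate number after the time, unlike the other repeated times, and shared a slide position. They were summed, which left 12 libraries. Nothing in the labels ties a section to an animal of its own, and p-values may therefore describe only technical spread. Counts in cells ran from 1678015 to 9619206 per section and the median per cell from 231 (6 mo) to 632 (section 1 of 14 d), against 314 and 317 at 0 h. Sections of 1 time differed by far more than counting noise (chi-square of 199 to 5025 per degree of freedom over the panel), and no pair shared more than 2 cell identifiers.

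Wnt ligands are secreted, lipid-modified proteins that bind Frizzled receptors, and many of them stabilise beta-catenin in the receiving cell. In the liver lobule, blood flows from the portal vein to the central vein, and Wnt signals made by cells around the central vein set the gene programme of the neighbouring hepatocytes. After partial hepatectomy the same pathway takes part in hepatocyte proliferation. Of the members, Wnt3a is a classic activator of beta-catenin, Wnt7a and Wnt7b are close relatives that signal to blood vessels of the brain, and Wnt2b is a close relative of Wnt2. Wnt10a is needed for teeth, hair and other skin appendages, Wnt10b restrains fat cell formation, and Wnt16 is made by bone-forming cells. Wnt9a takes part in joint formation, Wnt6 in development of the kidney tubule, and Wnt8a in early patterning of the embryo.

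The counts behind each member differed widely. Wnt10a was found in 24364 cells, of which 6090 held at least 2 transcripts, and a single section gave between 421 and 5002 counts. Wnt9a followed with 4566 counts in 4249 cells, Wnt7a with 1697 in 1614, Wnt2b with 1381 in 1354 and Wnt16 with 1117 in 957. The rarest were Wnt3a (626 counts), Wnt7b (409), Wnt10b (383), Wnt6 (168) and Wnt8a (97), and cells with more than 1 transcript were few, from 0 of 97 for Wnt8a and 4 of 622 for Wnt3a to 32 of 370 for Wnt7b. The tables name no control probe, so the share of false detections is unknown; the lowest totals of the panel were 30 counts for Wnt3 and 42 for Wnt8b. The sources used here do not give the number of probes per gene, and counts of different genes are not ranked as expression. Between 19.2% (Wnt7b) and 36.8% (Wnt10b) of a member's listed transcripts lay outside cells, against a median of 27.3% over the panel.

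**Figure D1:**
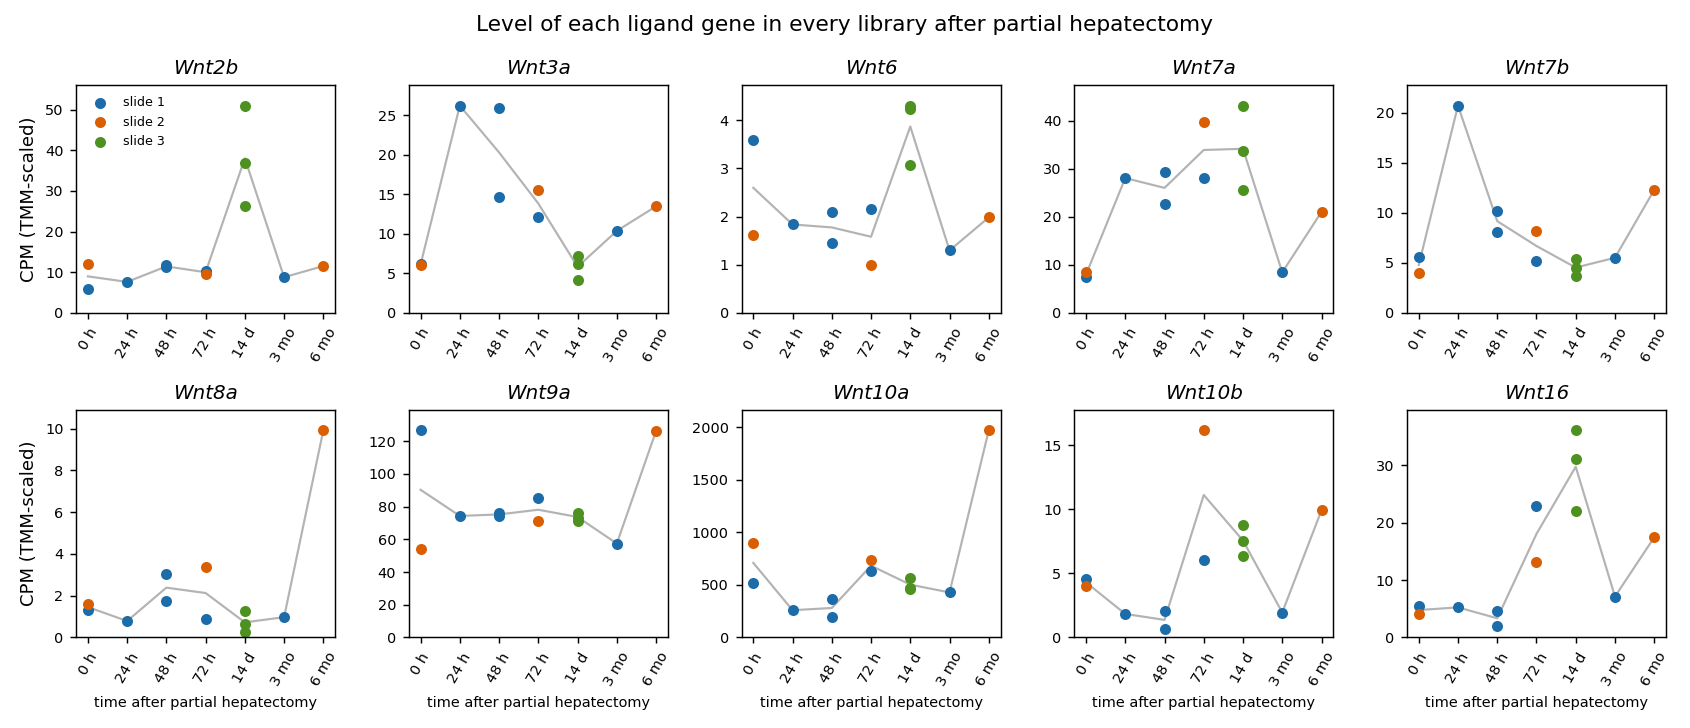
Level of each of the 10 ligand genes (y axis, CPM on the TMM scale, linear and starting at 0) at each time after partial hepatectomy (x axis). Each point is 1 of the 12 libraries, coloured by slide, and the grey line joins the means of the times; Wnt3a and Wnt7b are highest at 24 h, Wnt2b and Wnt16 at 14 d, and Wnt8a and Wnt10a at 6 mo.

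Levels were compared with 0 h in a fit of all libraries by edgeR's quasi-likelihood test, in counts per 1000000 of the TMM-scaled library total (CPM), at a threshold of 0.05 on p-values adjusted for the 99 tested genes (Benjamini-Hochberg); all 10 members passed the filter of 10 counts in 2 libraries. A sum over a section cannot tell fewer cells of a kind from less RNA per cell. At 24 h 3 members were higher and 1 was lower, where 15.2% of the panel was called higher, 7.07% lower and 22.2% in either direction. The 48 h sections had 2 members higher and 1 lower (11.1% and 12.1% of the panel, 23.2% in all). At 72 h 2 were higher and 0 lower (9.09% and 6.06%, 15.2% in all), and the 14 d sections had 3 higher and 0 lower (15.2% and 13.1%, 28.3% in all). At 3 mo edgeR called 0 members and 0% of the panel; 0 members had an unadjusted p under 0.05, and DESeq2 also called 0. At 6 mo 3 members were higher and 0 lower (11.1% and 12.1%, 23.2% in all). At an unadjusted p under 0.05 the counts of members were, in order of time, 4, 4, 4, 3, 0 and 4, and the shares of the panel 31.3%, 31.3%, 31.3%, 41.4%, 12.1% and 38.4%. The median log2 change of the 10 members, in the same order, was -0.25, 0.05, 0.61, 0.24, -0.29 and 1.27. Over all genes tested the medians were -0.09, 0.21, 0.12, 0.07, -0.02 and -0.15. Fits of only the times compared called 0 members for any of the 24 h, 48 h, 72 h and 6 mo libraries, with 4, 4, 2 and 0 at an unadjusted p under 0.05, and slide 1 alone called 0 for the first 3 of these times, with 2, 2 and 1. Under total-count scaling the median gene lay higher by 0.28 to 0.74 on the log2 scale and under scaling by cell number by -0.06 to 1.47. All changes below are relative to TMM unless another scale is named. Scaling by cell number called 8 of the 10 members higher at 14 d, and with them 75.8% of the panel higher and 2.02% lower; total-count scaling called 4 members higher there, and 37.4% of the panel higher and 5.05% lower.

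**Figure D2:**
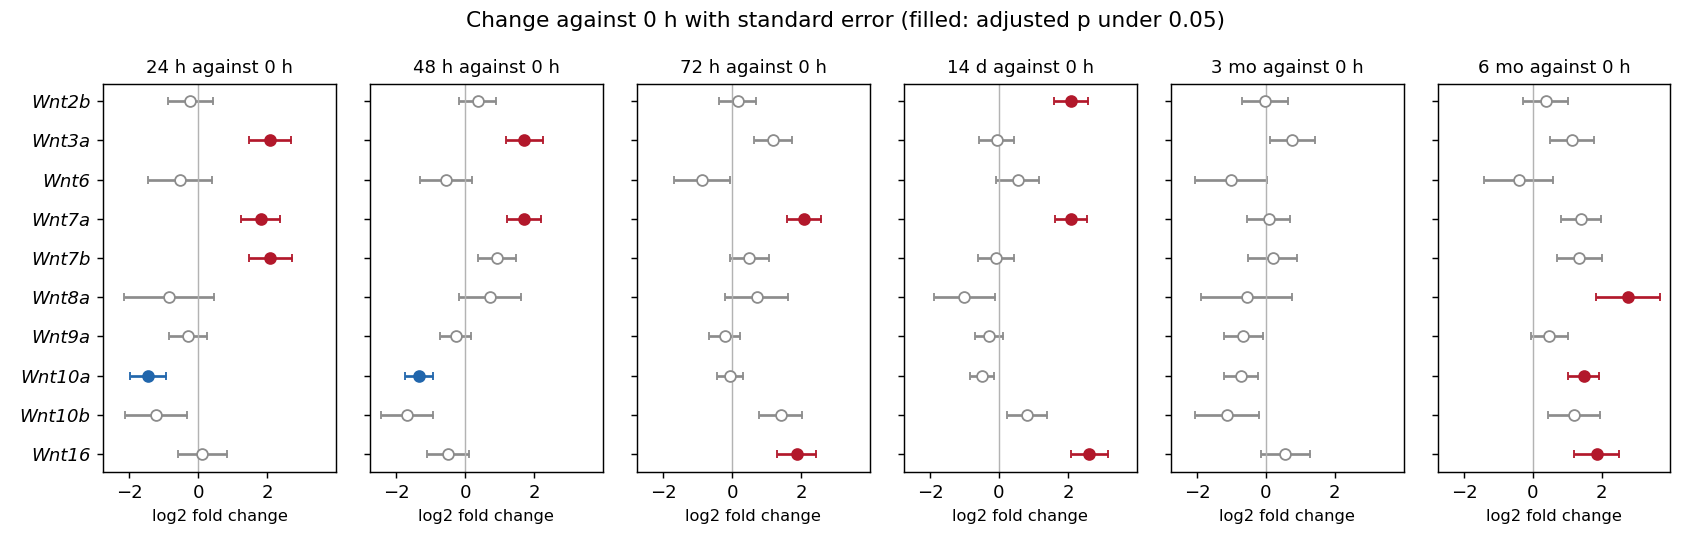
Log2 fold change against 0 h (x axis) of each ligand gene (y axis) at the 6 later times, with its standard error as a bar. Filled red points passed the adjusted threshold as higher and filled blue ones as lower; Wnt7a is filled at every time from 24 h to 14 d, and no gene is filled at 3 mo.

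Wnt7a was the member called at the most times. It was at 7.50 and 8.44 CPM in the 0 h sections (23 and 21 counts) and at 28.1 at 24 h (107 counts). It was at 22.8 and 29.3 CPM in the 48 h sections, at 28.2 and 39.7 at 72 h and at 25.6, 43.2 and 33.7 at 14 d. All of these libraries lay above both 0 h sections, as they did for 36.4%, 35.4%, 31.3% and 27.3% of the panel at the 4 times. The log2 change was 1.82 ± 0.56 (SE) for 24 h (adjusted p = 0.0238), 1.71 ± 0.49 for 48 h (0.0168), then 2.10 ± 0.49 for 72 h (0.00683) and 2.10 ± 0.47 for 14 d (0.00139), changes of 3.27-fold to 4.28-fold. Within slide 1 it was 3.74-fold, 3.47-fold and 3.75-fold above the 0 h section in the first 3 of these times, and within slide 2 4.70-fold at 72 h. At 3 mo it was back at 8.43 CPM (26 counts), between both 0 h sections. At 6 mo it stood at 21.0 CPM (53 counts), above both, without passing the test (log2 change 1.40 ± 0.58, adjusted p = 0.0885), although DESeq2 and total-count scaling did call it. The 24 h call ended when all listed transcripts were counted in place of those in cells (adjusted p = 0.0715), and the 48 h call without section 2 of 48 h (0.0502).

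Wnt3a was called at 24 h and 48 h. The 0 h sections held 6.20 and 6.03 CPM (19 and 15 counts), the 24 h library 26.2 (100 counts) and the 48 h sections 26 and 14.6 (89 and 63 counts). The 24 h and 48 h libraries did not overlap with 0 h, and the log2 change was 2.10 ± 0.61 at 24 h (adjusted p = 0.0183) and 1.72 ± 0.54 at 48 h (0.0244). At 72 h its sections stood at 12.1 and 15.6 CPM, above 0 h but not called (1.19 ± 0.54, adjusted p = 0.132). At 14 d the sections stood at 4.13, 6.18 and 7.18 CPM, around the 0 h values, at 3 mo at 10.4 and at 6 mo at 13.5. Within slide 1 it was 4.23-fold above 0 h at 24 h and 3.28-fold at 48 h. Without section 1 of 48 h the 48 h change was 0.89 (adjusted p = 0.215), and without section 2 of 0 h it was not called (0.0827).

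Wnt7b showed a single called rise, at 24 h. It went from 5.55 and 4.02 CPM at 0 h (17 and 10 counts) to 20.7 CPM (79 counts), a log2 change of 2.10 ± 0.62 (adjusted p = 0.0190) and 3.74-fold within slide 1. The 48 h sections, at 10.2 and 8.13 CPM, still lay above both 0 h sections but did not pass the test (0.92 ± 0.56, adjusted p = 0.264), and total-count and cell-number scaling did call them, along with 40.4% and 32.3% of the panel as higher. At 72 h (5.20 and 8.18 CPM), 14 d (3.71, 5.43 and 4.44) and 3 mo (5.51) Wnt7b overlapped with 0 h or lay next to it. At 6 mo it stood at 12.3 CPM (31 counts).

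Wnt10a moved the other way in the first days. It was at 519 and 901 CPM in the 0 h sections, at 259 at 24 h and at 366 and 195 at 48 h, all below both 0 h sections, as were 33.3% of the panel at 24 h and 20.2% at 48 h. The log2 change was -1.45 ± 0.51 at 24 h (adjusted p = 0.0459) and -1.34 ± 0.40 at 48 h (0.0176). Within slide 1 the level was 2.00-fold lower at 24 h and 1.85-fold lower at 48 h. By 72 h it stood at 628 and 738 CPM, within the range of 0 h, at 14 d at 472, 466 and 570, and at 3 mo at 429. These falls are relative to TMM. Total-count and cell-number scaling each called 3 members higher and 0 lower at both times. Of the panel they called 20.2% and 18.2% higher at 24 h and 40.4% and 32.3% at 48 h, and each called 2.02% lower at both times. The Wnt10a changes were -0.97 and -0.64 under total-count scaling and -0.89 and -0.61 under cell-number scaling, none of them called. The 24 h call ended in 17 of 25 alternatives, among them those without section 2 of 0 h, without either 72 h section, without any 1 of the 14 d sections and without the 6 mo section (adjusted p 0.0552 to 0.205), and the 48 h call without section 2 of 0 h (0.147) or of 48 h (0.165). With slide as a block neither fall was called (-1.15, adjusted p = 0.0876, and -1.04, 0.0619).

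Its relative Wnt10b was at 4.57 and 4.02 CPM at 0 h (14 and 10 counts), at 1.84 at 24 h (7 counts) and at 2.04 and 0.70 at 48 h (7 and 3 counts), below both 0 h sections at both times. At 72 h the sections stood at 6.07 and 16.2 CPM (14 and 81 counts), at 14 d at 7.52, 6.37 and 8.78 (71, 68 and 77 counts), at 3 mo at 1.95 (6 counts) and at 6 mo at 9.92 (25 counts). No time passed the test. The sections of 72 h lay far apart, the higher one on slide 2. Under total-count and cell-number scaling the 72 h and 14 d values were called higher, as were 26.3% and 38.4% of the panel at 72 h.

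Wnt16 and Wnt2b were called at 14 d together with Wnt7a. Wnt16 was at 5.55 and 4.02 CPM at 0 h (17 and 10 counts), at 5.25 at 24 h and at 2.04 and 4.65 at 48 h. It stood at 23.0 and 13.2 CPM at 72 h (53 and 66 counts) and at 22, 31.2 and 36.1 at 14 d (208, 333 and 317 counts). All 72 h and 14 d sections lay above 0 h, with log2 changes of 1.88 ± 0.57 (adjusted p = 0.0311) and 2.62 ± 0.54 (0.000727). Within slides the 72 h level was 4.14-fold (slide 1) and 3.27-fold (slide 2) above 0 h. It was at 7.13 CPM at 3 mo (22 counts). The 72 h call ended when section 2 of 0 h (0.0865), the first of 72 h (0.113) or the second of 14 d (0.0608) was left out, while the 14 d call held in all 24 alternatives that could be fitted (log2 change 2.38 to 4.06).

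Wnt2b was called at 14 d and at no other time. It was at 5.87 and 12.1 CPM at 0 h (18 and 30 counts), and every library of 24 h, 48 h, 72 h, 3 mo and 6 mo lay between these 2 values, from 7.61 to 11.7 CPM. The 14 d sections stood at 26.3, 36.8 and 51.0 CPM (248, 393 and 447 counts), all above 0 h, with a log2 change of 2.09 ± 0.49 (adjusted p = 0.00235). That call held in all 24 alternatives (1.63 to 3.58). The 14 d sections shared slide 3, which held no 0 h section, so no value within a slide exists for the 14 d rises of Wnt2b, Wnt7a and Wnt16. Other scarce panel genes (up to 1697 counts in all) also tended to be higher at 14 d. Of the 9 tested, 8 had a positive log2 change, 2 were called higher and 0 lower. Their median log2 change was 0.85, next to 0.67 for the 8 members in that range. Whether scarcity bears on the 14 d rises was not tested.

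The sequences before the start sites of the 3 genes that were higher together at 14 d are shown so that their promoters can be compared. They are the 250 bases upstream of the RefSeq start (GRCm38.p6, 5′ to 3′ along the gene), at chr3:104961710-104961959 (minus strand) for Wnt2b, chr6:91411354-91411603 (minus) for Wnt7a and chr6:22287977-22288226 (plus) for Wnt16. Capitals mark the GC box GGGCGG and the CCAAT box CCAAT on either strand.
Wnt2b: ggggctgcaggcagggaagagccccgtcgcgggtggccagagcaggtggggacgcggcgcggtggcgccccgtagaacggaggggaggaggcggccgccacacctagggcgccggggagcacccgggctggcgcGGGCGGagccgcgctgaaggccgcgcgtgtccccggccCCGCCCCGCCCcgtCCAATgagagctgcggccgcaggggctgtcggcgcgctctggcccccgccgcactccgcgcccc
Wnt7a: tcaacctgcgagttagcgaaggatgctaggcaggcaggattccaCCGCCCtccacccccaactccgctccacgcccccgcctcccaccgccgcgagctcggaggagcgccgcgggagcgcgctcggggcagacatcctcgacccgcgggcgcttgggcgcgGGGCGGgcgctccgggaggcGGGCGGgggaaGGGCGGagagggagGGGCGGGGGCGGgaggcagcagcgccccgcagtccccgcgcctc
Wnt16: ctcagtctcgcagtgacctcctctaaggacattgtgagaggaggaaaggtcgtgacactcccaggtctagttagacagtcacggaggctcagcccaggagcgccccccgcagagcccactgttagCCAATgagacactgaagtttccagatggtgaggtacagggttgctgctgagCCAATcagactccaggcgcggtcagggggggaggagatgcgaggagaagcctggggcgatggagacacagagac
The Wnt16 window held 2 CCAAT boxes and no GC box, the Wnt7a window 6 GC boxes and no CCAAT box, and the Wnt2b window 1 CCAAT box and 3 GC boxes, of which 2 overlap. GC content was 80.8% for Wnt2b, 77.6% for Wnt7a and 59.2% for Wnt16. The CCAAT box was present in 33.8% of the 32851 RefSeq windows of this length and the GC box in 32.7%. Neither the TCF core CTTTGA (13.8% of windows) nor the TATA box TATAAA (12.4%) occurred in any of the 7 members with a window in the table, so these letters are not in those windows. A match is a description of the letters and names no bound factor.

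At 6 mo, measured in 1 section, Wnt10a, Wnt16 and Wnt8a were called higher. Wnt10a reached 1971 CPM (4968 counts), above every other library, a log2 change of 1.47 ± 0.46 (adjusted p = 0.0256) and 2.19-fold above the 0 h section of the same slide. Wnt16 stood at 17.5 CPM (44 counts; 1.85 ± 0.66, adjusted p = 0.0476; 4.34-fold within slide 2). Wnt8a went from 1.31 and 1.61 CPM at 0 h (4 counts each) to 9.92 CPM (25 counts), a log2 change of 2.76 ± 0.93 (adjusted p = 0.0365) and 6.17-fold within slide 2; its other 9 libraries after 0 h stood at 0.28 to 3.39 CPM (2 to 17 counts). Of the 10 members 7 lay above both 0 h sections at 6 mo and 0 below, where 31.3% and 42.4% of the panel did; in the 3 mo section 2 lay above and 4 below (30.3% and 35.4%). The 6 mo section had the fewest counts per cell of all, and the other 9 scarce panel genes tested (up to 1697 counts in all) had a median log2 change of 1.26 there, next to 1.27 for the 8 members in that range. Under scaling by cell number 0 of the 3 passed, although their log2 changes were about as large, 1.48 for Wnt10a (adjusted p = 0.0607), 1.79 for Wnt16 (0.0938) and 2.70 for Wnt8a (0.0607). Whether the low depth bears on the 3 rises was not tested otherwise. The Wnt10a call ended without section 1 of 0 h (0.0585) or of 72 h (0.0588), that of Wnt16 without section 2 of 0 h or any 1 section of 14 d (0.0549 to 0.0840), and that of Wnt8a without either section of 0 h or 48 h or without section 1 of 14 d (0.0572 to 0.0754). With slide as a block Wnt8a was no longer called (2.21, adjusted p = 0.127), while Wnt10a (1.26, 0.0364) and Wnt16 (2.23, 0.0164) were.

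Wnt9a and Wnt6 were called at no time. Wnt9a lay far apart in the 0 h sections, at 127 and 53.9 CPM (388 and 134 counts), and the 24 h to 14 d libraries lay between them, from 71.2 to 84.9 CPM. Its 14 d sections were close together, at 71.5, 76.1 and 73.3 CPM, and it stood at 57.4 at 3 mo and 126 at 6 mo. A change within the spread of the 0 h sections could not be seen for this gene. Wnt6 was at 3.59 and 1.61 CPM at 0 h (11 and 4 counts), at 1.00 to 2.17 CPM from 24 h to 72 h (5 to 9 counts) and at 4.23, 4.31 and 3.08 at 14 d (40, 46 and 27 counts). Counts this low leave only large changes detectable. In the RefSeq table Wnt3a and Wnt9a are next to each other, as are Wnt6 and Wnt10a. At 24 h and 48 h, where Wnt3a had log2 changes of 2.10 and 1.72, those of Wnt9a were -0.28 ± 0.55 and -0.27 ± 0.45. At the same times Wnt10a was at -1.45 and -1.34 and Wnt6 at -0.53 ± 0.93 and -0.56 ± 0.76. Whether neighbours change together was not tested.

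Of the other Wnt pathway genes of the panel 29 of 30 were tested. At 24 h 4 of them were higher and 0 lower, at 48 h and 72 h 1 was higher and 0 lower, at 14 d 5 were higher and 2 lower, at 3 mo 0 were called and at 6 mo 3 were higher and 0 lower. Lgr5, a receptor for R-spondins and itself a target of the pathway, was higher at 24 h (log2 change 1.77 ± 0.49, adjusted p = 0.0161). The target Lect2 was also higher then (1.78 ± 0.52, adjusted p = 0.0244). The targets Axin2 (0.43 ± 0.47, adjusted p = 0.589) and Tbx3 (0.03 ± 0.51, 0.962) were not called at 24 h. Znrf3 was lower at 14 d (-1.43 ± 0.28, adjusted p = 0.000688). Fzd6, a Frizzled receptor, was higher at 6 mo (2.39 ± 0.54, adjusted p = 0.00398), when Wnt10a was too. The panel genes outside the members whose log2(CPM + 1) followed a called member most closely over the 12 libraries were Fzd6 (Pearson r = 0.81) and Atp5a1 (0.75) for Wnt10a, Ccnd1 (0.84) and Ccne1 (0.81) for Wnt3a, and Lgr5 (0.79) and Znrf3 (0.71) for Wnt7b. They were Wnt5a (0.81) and Cldn7 (0.76) for Wnt7a, Mogat1 (0.89) and Wnt11 (0.78) for Wnt16, Epas1 (0.86) and Fzd1 (0.84) for Wnt2b, and Igfbp2 (0.79) and Fzd9 (0.74) for Wnt8a. These are descriptions over libraries that share slides and times.

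Where the transcripts lay was read from their positions. Square tiles with sides of 400 coordinate units, holding 50 transcripts or more, were scored by 9 genes of hepatocytes around the central vein minus 6 of those around the portal vein, none of them a member. Each transcript then took the percentile of its tile, so that all transcripts of a section average 50 and high values are central. Wnt10a was the most portal member, with a mean percentile of 28.5 over 37585 transcripts, rank 99 of the 100 genes from the central side. It was below 50 in 12 of 12 sections (20.1 to 31.3); 20.1% of its transcripts lay in the most portal 10% and 0.548% in the most central. In section 1 of 0 h, for example, where the axis is divided into 3 zones of equal transcript number, there were 980 Wnt10a transcripts per 1000000 listed ones (ppm) in the portal zone, 182 in the middle and 13.6 in the central zone. Wnt2b was also portal, at 32.5 (15.1% in the most portal 10%, 1.12% in the most central), and below 50 in all 10 sections with at least 20 of its transcripts.

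Wnt16 (41.6), Wnt7b (43.7), Wnt9a (44.5), Wnt7a (47.7) and Wnt8a (48.9) lay nearer the middle. Pooled over sections, Wnt10b (54.7), Wnt3a (57.6) and Wnt6 (59.7) lay on the central side, but only 4 sections had 20 Wnt10b transcripts and only 2, both of 14 d, had 20 of Wnt6. Wnt3a was above 50 in 11 of 12 sections, the exception being 6 mo at 42.9, and Wnt6 had 25.8% of its 178 transcripts in the most central 10%, although at 24 h all 4 of its transcripts in each section lay in the most portal of 3 equal zones. Neighbours in this order, such as Wnt9a and Wnt7b, overlapped section by section, while every Wnt10a section lay below every Wnt3a and every Wnt9a section.

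**Figure D3:**
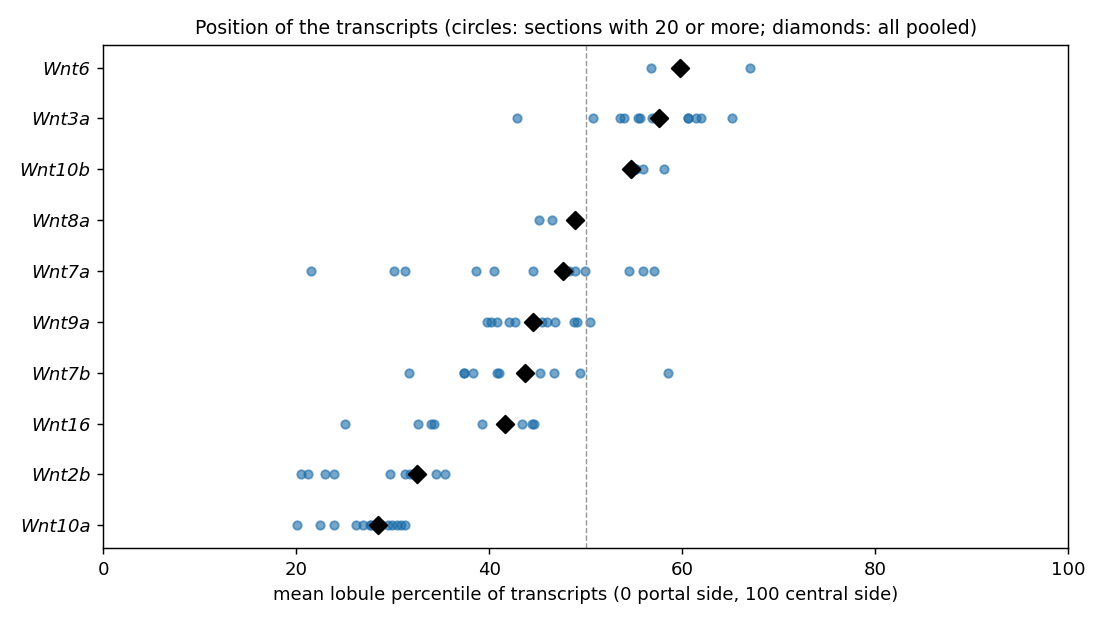
Mean lobule percentile (x axis, 0 to 100, with 50 the average of all transcripts as a dashed line) of each ligand gene (y axis). Circles are sections with at least 20 transcripts of the gene and diamonds are all transcripts pooled; Wnt10a at 28.5 and Wnt2b at 32.5 are the most portal, and the highest pooled value is that of Wnt6 at 59.7, from 178 transcripts.

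Changes of position with time were tested in limma for the 85 genes with at least 20 placed transcripts in every section, among them Wnt3a, Wnt7a, Wnt9a and Wnt10a. Wnt7a was called at 3 times, each time as more central than at 0 h. Its mean percentile was 31.3 and 40.5 in the 0 h sections, 57.0 and 48.2 at 24 h, 55.9 and 54.5 at 48 h, 38.6 and 44.6 at 72 h and 48.9 and 49.9 in the 14 d sections with positions. The difference was 16.7 ± 3.8 percentile points at 24 h (adjusted p = 0.0247), 19.3 ± 3.1 at 48 h (0.00217) and 13.5 ± 3.1 at 14 d (0.0120), where 5.88%, 43.5% and 29.4% of genes were called. At 72 h the difference of 5.65 ± 3.09 did not pass (0.315; 4.71% of genes called). The 3 mo and 6 mo sections stood at 21.6 and 30.1, as portal as 0 h or more so (1.18% of genes called at each, none of them a member). The 24 h call ended without section 1 of 24 h (12.3, adjusted p = 0.0607).

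The 3 zones of the axis, made from the same transcripts and tiles, give this shift as counts and are no second test of it. Percentiles and zones were both weighted by all listed transcripts, those of Cyp2e1 included. Cyp2e1, whose own mean percentile was 76.8, fell from a mean of 427707 CPM at 0 h to 74095 at 48 h. Whether this fall bears on the position calls or the zone values was not tested. At 0 h the central zone held 5 and 4 Wnt7a transcripts, 2.96 and 2.39 ppm, and the portal zone 21 and 12, 12.4 and 7.18 ppm. At 48 h the central zone held 28.2 and 41.7 ppm (43 and 77 transcripts) and the portal zone 16.4 and 27.0. At 14 d the central zone stood at 32.2 and 45.1 and the portal zone at 36.1 and 46.0 ppm, nearly even. At 3 mo 31 of its 36 placed transcripts lay in the portal zone (20.1 ppm) and 2 in the central (1.30 ppm). At 6 mo the portal zone held 31.8 and the central zone 3.97 ppm. Per listed transcripts, portal and central zones thus both held more Wnt7a at 14 d than at 0 h. At 3 mo only the portal zone lay above both 0 h sections, but these zone values are not TMM-scaled. Under total-count scaling of counts in cells, the median gene at 3 mo lay 0.62 higher on the log2 scale than under TMM. In TMM-scaled CPM Wnt7a at 3 mo (8.43) lay between the 0 h sections (7.50 and 8.44), so no portal rise is read from this.

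**Figure D4:**
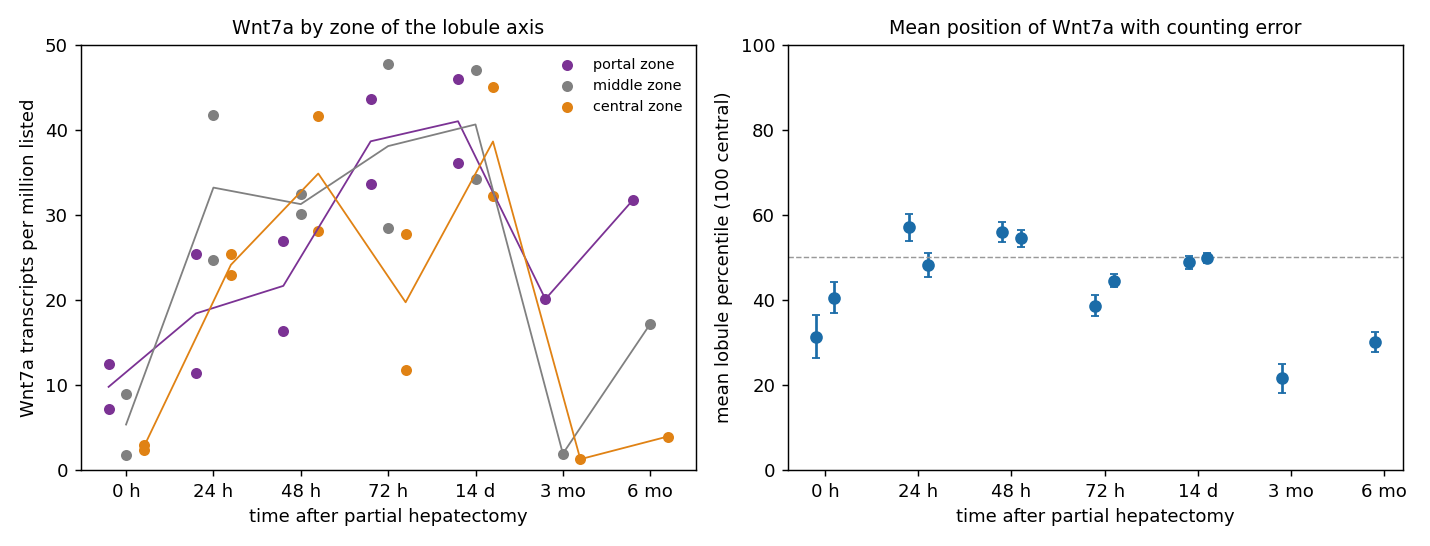
Left, Wnt7a transcripts per 1000000 listed transcripts (y axis) in the portal, middle and central zone of the lobule axis at each time (x axis), with points for sections and lines through the means. Right, mean lobule percentile of Wnt7a (y axis, 50 dashed) in each section by time, with its counting error as a bar; the central zone rises from under 3 ppm at 0 h to over 20 at 24 h and 48 h and the mean percentile from 31.3 and 40.5 to about 50 or above.

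Wnt10a, Wnt3a and Wnt9a were not called for position at any time. Wnt10a stood at 20.1 and 26.2 at 0 h and at 29.5 and 31.3 at 14 d (difference 7.26 ± 2.59, adjusted p = 0.0523). Wnt3a was at 53.6 and 61.5 at 0 h, at 65.1 and 60.6 at 48 h and at 42.9 at 6 mo (difference to 0 h -14.6 ± 4.1, adjusted p = 0.0798). With a lower minimum of 10 transcripts, which admitted Wnt2b and Wnt16, both were called more central at 48 h and 14 d, and Wnt7a had the same 3 calls. The 0 h sections decide much of this: the calls of members for position numbered 3 with both, 9 without section 1 and 10 without section 2, and in each case the 3 calls of Wnt7a were among them. Shares of all genes called in these other fits are not given here, so the added member calls cannot be set against the panel. In the main fit 43.5% of genes were already called at 48 h and 29.4% at 14 d.

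The cells that held the members were described by the other genes in them. The panel has 1 or 2 markers for each non-hepatocyte class (Pecam1 for endothelium, Adgre1 and Lyz2 for macrophages, Ptprc for leukocytes, Lrat for stellate cells, Sox9 for bile duct cells), so cells are named here by genes only. Co-detection is given as the number of cells with both genes over the number expected when cells of equal total counts (10 strata per section) are mixed at random. Wnt7b stood apart. Of its 370 cells 230 (62.2%) also held Sox9, against 13.3% of all cells, a ratio of 4.95, and the ratio was above 1 in 12 of 12 sections with at least 10 such cells. The ratio was 17.1 with Cldn7, a tight junction protein of epithelia, 19.8 with the receptor Fzd3 and 7.08 with Wnt4. Markers of the other classes were raised less, with ratios of 1.51 for Lyz2, 1.498 for Ptprc, 1.26 for Adgre1, 1.11 for Lrat and 1.08 for Pecam1. The Lyz2 ratio was above 1 in 11 of 12 sections and the Ptprc ratio in 10. Within 100 coordinate units of a Wnt7b transcript, Cldn7 was 75.1 times and Sox9 30.2 times as frequent as in the whole section, and Wnt7b itself 78.1 times. Ptprc was 4.098, Pecam1 2.798, Lyz2 2.52, Adgre1 1.88 and Lrat 1.502 times as frequent there. From these genes Wnt7b cells are not assigned to 1 class. Wnt7b cells were also small, with 0.675 of the median count of all cells.

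Cells with both Sox9 and Cldn7 numbered 1460, or 1.11% of all, and held 195 of the 409 Wnt7b counts (47.7%). The next highest shares were 8.25% for Wnt7a and 7.53% for Wnt9a, and Wnt10b had 2 of 383 counts there (0.522%). At 24 h there were 293 Wnt7b counts per 1000 such cells, against 122 at 0 h (9 counts). The later times had 178, 124, 109, 108 and 61.4, in order. At 0 h all 9 of these counts were in section 1. The cells themselves were 0.510% and 0.144% of the 0 h sections, 1.39% and 1.31% of the 24 h sections and 1.39% to 2.05% of the 14 d sections. Outside them Wnt7b stood at 2.10 and 2.50 counts per 1000000 (without TMM scaling) at 0 h and at 8.85 and 9.0 at 24 h. Without those cells, a choice made after seeing the data, the 24 h change of Wnt7b was 1.70 ± 0.80 and no longer called (adjusted p = 0.169), while Wnt7a remained called at 24 h (1.79 ± 0.48, 0.0156), 48 h, 72 h and 14 d (2.06 ± 0.39, 0.00174).

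**Figure D5:**
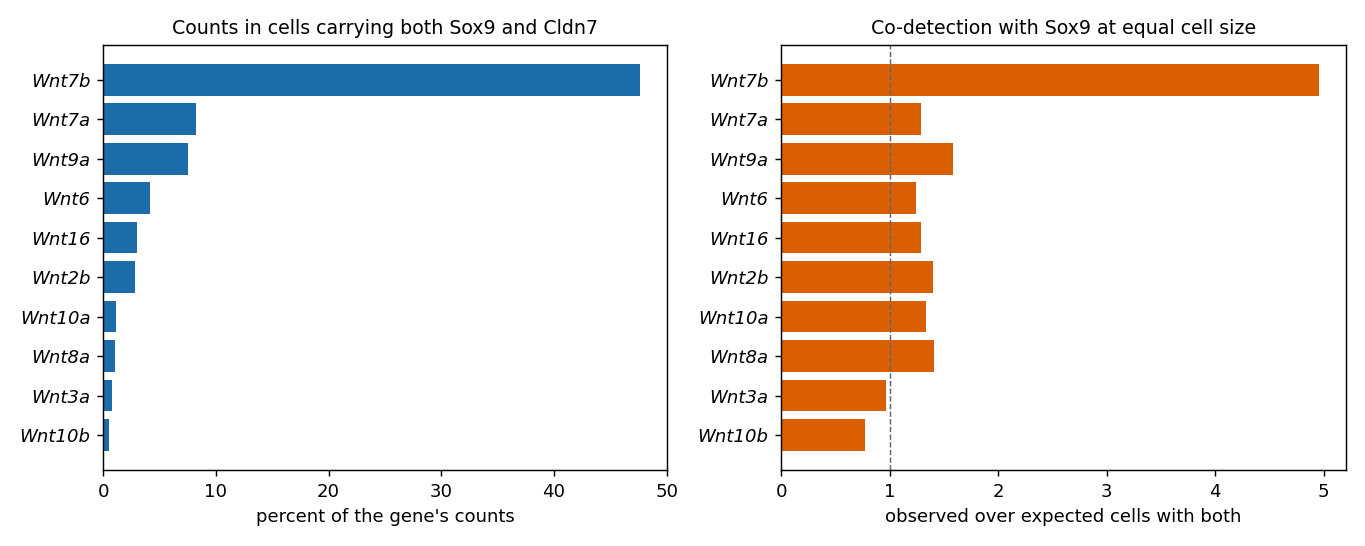
Left, percent of each ligand gene's counts (x axis) that lay in the 1460 cells carrying both Sox9 and Cldn7, over all 13 sections. Right, observed over expected number of cells holding the gene and Sox9 (x axis), with 1 as a dashed line; Wnt7b leads both panels at 47.7% and 4.95.

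Wnt9a and Wnt7a shared part of this pattern. The co-detection ratio with Sox9 was 1.58 for Wnt9a (above 1 in 13 of 13 sections) and 1.29 for Wnt7a (10 of 13), and with Cldn7 it was 3.70 and 3.29. Ratios with Sox9 of 1.29 to 1.41 were also found for Wnt2b, Wnt8a, Wnt10a and Wnt16. Wnt6 had 1.24, Wnt3a 0.96 and Wnt10b 0.77. The expected number takes no account of position, and Sox9 transcripts were themselves portal (mean percentile 29.7). Whether position bears on these ratios was not tested. Wnt7b was found in Wnt7a cells at 8.06 times and in Wnt9a cells at 5.93 times the expected number (39 and 69 cells). Outside cells with both Sox9 and Cldn7, Wnt7a stood at 5.78 and 5.25 counts per 1000000 at 0 h and at 19.9 to 44.4 in the sections from 24 h to 14 d. These values are not TMM-scaled.

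Wnt10a cells carried genes of portal hepatocytes more often than other cells of their size. Of them 70.8% held Gls2 (46.3% of all cells, ratio 1.33) and 86.3% held Hsd17b13 (60.3%, ratio 1.32). Ratios with Sox9 (1.33) and Wnt2b (1.38) were above 1 in 13 of 13 sections, and those with Pecam1, Adgre1, Lyz2, Ptprc and Lrat lay between 0.860 and 0.951. Around Wnt10a transcripts the central ligands Wnt9b and Wnt2 and the central enzyme Glul were at 0.175, 0.402 and 0.224 of their frequency in the section. Wnt3a was the reverse, with Rspo3, a Wnt amplifier made around the central vein, at 1.58 and Glul at 1.19. Wnt2b cells held Wnt4 at 2.21 and Sox9 at 1.40 times the expected number (above 1 in 10 and 11 of 13 sections). Rspo1 was at 1.74, but from 20 cells and above 1 in only 4 of 13.

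Wnt6 was found in other cells again. Its 158 cells held Wnt4 at 4.76, Wnt5a at 3.18, Fzd7 at 2.71 and Rspo3 at 2.50 times the expected number. Of these cells 104 were at 14 d, and only 4 sections had at least 10 of them. Ratios with Adgre1, Ptprc, Lyz2, Lrat and Pecam1 were 1.98, 1.96, 1.85, 1.64 and 1.42, so that markers of several classes were raised together, in cells of 0.823 of the median count. Which class holds Wnt6 cannot be told apart from these genes. Around its 178 placed transcripts Wnt6 itself was 51.7 times as frequent as in the section, with at least 10 such transcripts in only 4 sections.

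Transcripts of some members shared cells more often than their number predicts. The number of same-cell pairs over that expected from the cells' total counts was 54.3 for Wnt6 (rank 3 of 100 genes), 50.2 for Wnt7b (rank 4) and 25.8 for Wnt16 (rank 8), against a median of 1.89 over the panel and 1.87 for Wnt10a. The Wnt6 ratio rests on few pairs, 10 at 14 d and 1 at 48 h. For Wnt16 nearly all such pairs came from 14 d. In the 0 h, 24 h and 48 h sections every positive cell held 1 transcript (27, 20 and 27 cells), but only 0.0209, 0.0207 and 0.0262 pairs would be expected there, so clustering could not be seen at these counts. At 72 h 2 of 116 cells held more, and at 14 d 92 of 702 cells did, with up to 8 in 1 cell and a pair ratio of 27.4. The 3 sections of 14 d had 22, 44 and 26 such cells, so the clustering was present in each. Pooled over all sections, Wnt16 cells held Wnt7a at 2.03 and Cldn7 at 2.00 times the expected number (38 and 46 cells), but the ratio was above 1 in only 5 and 6 of 12 sections.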

How the data were processed

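The authors deposited, for each of 13 sections, whole-number transcript counts per panel gene and cell, with no normalization, and for 12 of them the position of every listed transcript, in coordinate units; the length of a unit, the decoding and the outlining of cells are not given in the sources used here. Per the labels' protocols the assay was run by Resolve Biosciences.

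Counts were summed over all cells of a section, with no filter on cells, and both 24 h sections were summed, giving 12 libraries. edgeR 4.0.16 (R 4.3.3) fitted all 7 times with TMM scaling and its quasi-likelihood F test, robust setting (5 residual degrees of freedom). Genes needed 10 counts in 2 libraries, and p-values were Benjamini-Hochberg adjusted over 99 genes at a threshold of 0.05. The standard error is the log2 change over the square root of F. Position was tested as the mean lobule percentile per library in limma 3.58.1 over 85 genes (4 residual degrees of freedom). Neighbour frequencies of Wnt10a used at most 3000 of its transcripts per section. Cells were never used as replicates, and doublets were not called.

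All members are named. Like genes are the 2 outside the members with the highest correlation for each called member, and at most 2 other pathway genes per time are named from those with the smallest p. Lect2, Axin2 and Tbx3 at 24 h are named besides these, as further targets of the pathway. The members and all lists were chosen with earlier results of these data known. Alternatives covered scaling, DESeq2 1.42.0, the count filter, transcripts outside cells, grouping of sections, slide, replicate number, tile size, strata and leaving out each section. Fzd2, with 0 or 1 count in the 0 h sections, is not given a fold.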

Additional observations from a re-analysis of the deposited data

How the results depend on the processing

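Of the calls of members, the 14 d rises of Wnt2b, Wnt7a and Wnt16 held in the 24 alternatives that could be fitted, and no called member changed sign in any. At 24 h, where 4 members were called, counting all listed transcripts called 2, and 0 were called with the 14 d sections as 1 library, on slide 1 alone or with only the times compared (4, 2 and 4 at an unadjusted p under 0.05). Without cells carrying Sox9 and Cldn7, chosen after seeing the data, 2 were called. At 48 h (3 called) the 14 d sections as 1 library left 1, and slide 1 alone and only the times compared left 0 (2 and 4 at an unadjusted p under 0.05). At 72 h (2 called) total-count and cell-number scaling each called 4 (26.3% and 38.4% of the panel higher), the 14 d sections as 1 library 1, and slide 1 alone and only the times compared 0 (1 and 2 unadjusted). At 14 d (3 called) scaling by cell number called 8 (75.8% of the panel higher). At 6 mo (3 called) scaling by cell number, the 14 d sections as 1 library and only the times compared called 0 (4, 4 and 0 unadjusted). Fewer libraries enter those fits; the cause of the other shifts was not tested.

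Leaving out 1 section gave 3 to 4 calls at 24 h, 1 to 3 at 48 h, 1 to 2 at 72 h, 3 to 4 at 14 d, 0 to 0 at 3 mo, 1 to 4 at 6 mo, and 2 to 10 for position. For position (3 called) a minimum of 10 transcripts gave 7, one of 50 gave 1 and weights by transcripts gave 5. Shares of all genes called in these position fits are not given here.

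Uncalled changes at 14 d that took the other sign were those of Wnt3a, 0.67 under total-count scaling, 1.38 by cell number and 0.034 with the 24 h sections as 2 libraries (-0.23 to 0.12 without 1 section), and of Wnt7b, 0.64, 1.37 and 0.024 (-0.33 to 0.16). Wnt9a stood at 0.40 and 1.13 under these scalings and at -0.81 to 0.45 without 1 section, and Wnt10a at 0.32 and 1.04. The section number as a replicate block left 1 member called at 48 h. Samples of the same number did not all deviate together (correlations of -0.51 between 0 h and 48 h and 0.21 between 0 h and 72 h), and the numbers are not taken to pair sections, although for 0 h and 72 h they also mark the slide. Slide as a block ended the Wnt10a falls and the Wnt8a rise and could not be fitted for 14 d. Co-detection ratios with Sox9 moved by less than the SD between sections under 5 or 20 strata. Counting only cells with at least 2 Sox9 transcripts moved 4 of 10 by more, to 12.1 for Wnt7b, 2.65 for Wnt9a, 2.07 for Wnt7a and 1.70 for Wnt6. Depth limits the rarest members: for Wnt8a, 3 counts at 24 h against 8 at 0 h gave a ratio of 0.546 (95% interval 0.0933 to 2.28, counting error only).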
